A study of Arabidopsis thaliana with 2 samples.

Results

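The 10 genes described here encode enzymes and 1 helper protein of flavonol and anthocyanin synthesis in Arabidopsis thaliana: CHS (AT5G13930), CHI (AT3G55120), CHIL (AT5G05270), F3H (AT3G51240), TT7 (AT5G07990), FLS1 (AT5G08640), UGT78D1 (AT1G30530), UGT78D2 (AT5G17050), DFR (AT5G42800) and LDOX (AT4G22880). They were chosen by locus, and each is represented by 1 probe among the 25665 loci named on the array. Of the 10, 8 gave signals well above background in both genotypes on both arrays, while DFR and LDOX did so in no channel, so that the pair specific to the anthocyanin side was not measured above background in these stems.

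The study set the mutant sgr1 against wild type (Columbia) on 2 two-colour Agilent arrays. The sgr1 mutation lies in SCARECROW (SCR), a transcription factor gene needed to form the endodermis of the shoot. Each RNA came from at least 10 plants grown under constant white light at 23 °C. Their growth included 3 days of cold and 10 days on plates. Stem pieces 1.5 cm long were taken from 0.3 to 1.8 cm below the inflorescence apex, with side organs taken off. The stems were 5 to 8 cm high. On array 1 sgr1 carried Cy3 and wild type Cy5, and on array 2 the dyes were exchanged. The labels speak of 2 biological replicates but number both arrays as replicate 1 of 1, so the spread between the arrays, and with it every p-value, may be technical. SCR itself was called lower in sgr1, with log2 ratios of -0.81 and -1.16, but the position of its probe relative to the lesion is not known.

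Flavonoids are built from the phenylpropanoid pathway, which also feeds lignin. CHS (chalcone synthase) joins a coumaroyl unit to malonyl units, CHI (chalcone isomerase) closes the ring to a flavanone, and F3H hydroxylates it to a dihydroflavonol. At this branch point FLS1 (flavonol synthase) makes flavonols, which absorb ultraviolet light in the epidermis and influence auxin transport, while DFR and LDOX lead to the red and purple anthocyanins and to the proanthocyanidins of the seed coat.

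Ratios below are log2 values of sgr1 over wild type after loess normalization within each array, written as mean ± SD over both arrays (n = 2), with the 95% interval of the limma fit. A gene is called when its Benjamini-Hochberg adjusted p from limma, over all 19059 genes tested, is under 0.05. By this rule 6 of the 8 measured enzyme genes were called higher in sgr1 and none lower. Among all genes tested 18.9% were called, 9.92% higher and 8.98% lower. The median ratio of the 8 genes was 0.56, against 0.0048 over all genes. All 8 had ratios above 0 on both arrays, as had 33.6% of all genes, and TT7 alone was at least 2-fold higher on both, as were 0.777% of all genes. In whole stem pieces like these, more cells of a type and more RNA per cell cannot be told apart.

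The scanner intensities show the raw measurement behind these ratios. In both dyes, each of the 8 probes was brighter with sgr1 RNA than with wild-type RNA, when the array that carried sgr1 in a dye was set against the one that carried wild type in it. The same held for 30.5% of all genes. These comparisons run between arrays and were not normalized: over all genes the median of the same quotient was 0.928 in Cy3 and 1.20 in Cy5.

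**Figure D1:**
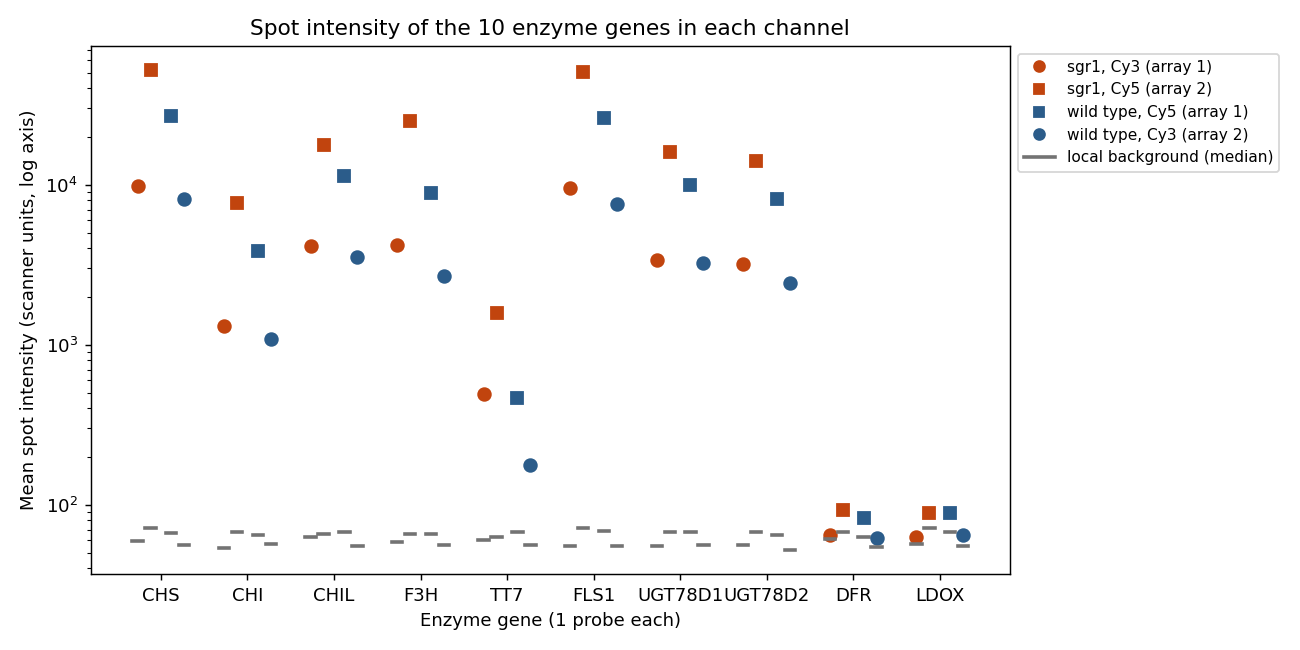
Mean spot intensity on a log axis for the probe of each of the 10 enzyme genes, with sgr1 (orange) left of wild type (blue), Cy3 as circles, Cy5 as squares and the local background as grey bars. Levels are to be compared within a gene. The 8 probes from CHS to UGT78D2 lie above background in every channel, and DFR and LDOX lie close to it in all.

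Of the first enzymes of the pathway, CHS and CHI had similar mean ratios. The CHS spot had a mean intensity of 9800 in Cy3 and 52200 in Cy5 with sgr1 RNA, against 8150 in Cy3 and 27000 in Cy5 with wild-type RNA. Its log2 ratio was 0.56 on each array, or 1.48-fold higher in sgr1 (95% interval 0.28 to 0.84, limma adjusted p = 0.0023). The arrays thus gave the same value, and the sgr1 RNA gave the brighter spot in each dye.

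CHI had intensities of 1310 in Cy3 and 7670 in Cy5 in sgr1, against 1090 in Cy3 and 3880 in Cy5 in wild type. Its mean ratio, 0.55 ± 0.40, was close to that of CHS, but it rested on unequal arrays, with 0.27 on array 1 and 0.84 on array 2 (95% interval 0.26 to 0.85, limma adjusted p = 0.0039). CHI had the widest spread of the 8 genes.

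CHIL, a relative of chalcone isomerase without that activity that helps CHS to form the right product, had intensities of 4150 in Cy3 and 17600 in Cy5 in sgr1, against 3520 in Cy3 and 11400 in Cy5 in wild type. Its ratio was 0.38 ± 0.13, with 0.47 on array 1 and 0.28 on array 2. CHIL lay at the threshold without passing it (limma adjusted p = 0.0504, 95% interval 0.096 to 0.66), and it passed with scaling between arrays (adjusted p = 0.0492; the range over the 10 alternatives with a test was 0.0492 to 1.00).

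F3H, which makes the dihydroflavonols used by both branches, had intensities of 4180 in Cy3 and 24900 in Cy5 in sgr1, against 2690 in Cy3 and 8840 in Cy5 in wild type. Its ratio of 1.00 ± 0.24 made it 2.00-fold higher in sgr1 (95% interval 0.72 to 1.29, limma adjusted p = 2.25e-07). The ratio was 0.83 on array 1 and 1.17 on array 2.

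TT7, the flavonoid 3'-hydroxylase that turns kaempferol-type into quercetin-type precursors, had the largest ratio of the 8 genes. Its spot had intensities of 493 in Cy3 and 1570 in Cy5 in sgr1, against 178 in Cy3 and 467 in Cy5 in wild type. The ratio was 1.66 on array 1 and 1.41 on array 2, or 2.90-fold higher in sgr1 on average (1.54 ± 0.18, 95% interval 1.26 to 1.82, limma adjusted p = 1.53e-12). TT7 lay at the 99.7 percentile of the ratios of all genes, and it was the sole member at which sgr1 was the brighter channel on both arrays before normalization.

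FLS1, the main flavonol synthase, had intensities of 9530 in Cy3 and 50900 in Cy5 in sgr1, against 7610 in Cy3 and 26100 in Cy5 in wild type. The arrays gave ratios of 0.57 and 0.63, or 1.51-fold higher in sgr1 (0.60 ± 0.043, 95% interval 0.32 to 0.88, limma adjusted p = 0.00116). The ratio of FLS1 was thus close to that of CHS on both arrays.

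Flavonols are stored as glycosides, and 2 of the transferases that attach a first sugar are members, both of them measured. UGT78D2, which adds glucose to flavonols and to anthocyanidins, had intensities of 3180 in Cy3 and 14000 in Cy5 in sgr1, against 2430 in Cy3 and 8100 in Cy5 in wild type. It was 1.44-fold higher in sgr1 (0.53 ± 0.031, 95% interval 0.25 to 0.81, limma adjusted p = 0.00416), with ratios of 0.55 and 0.51 on arrays 1 and 2. UGT78D1, which adds rhamnose to flavonols, had intensities of 3410 in Cy3 and 16000 in Cy5 in sgr1, against 3250 in Cy3 and 10000 in Cy5 in wild type. UGT78D1 had the smallest ratio of the group, 0.31 ± 0.065, with 0.36 on array 1 and 0.27 on array 2. It did not pass the test (limma adjusted p = 0.110, 95% interval 0.035 to 0.59), so a difference of up to the size seen for CHS lies within its interval.

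**Figure D2:**
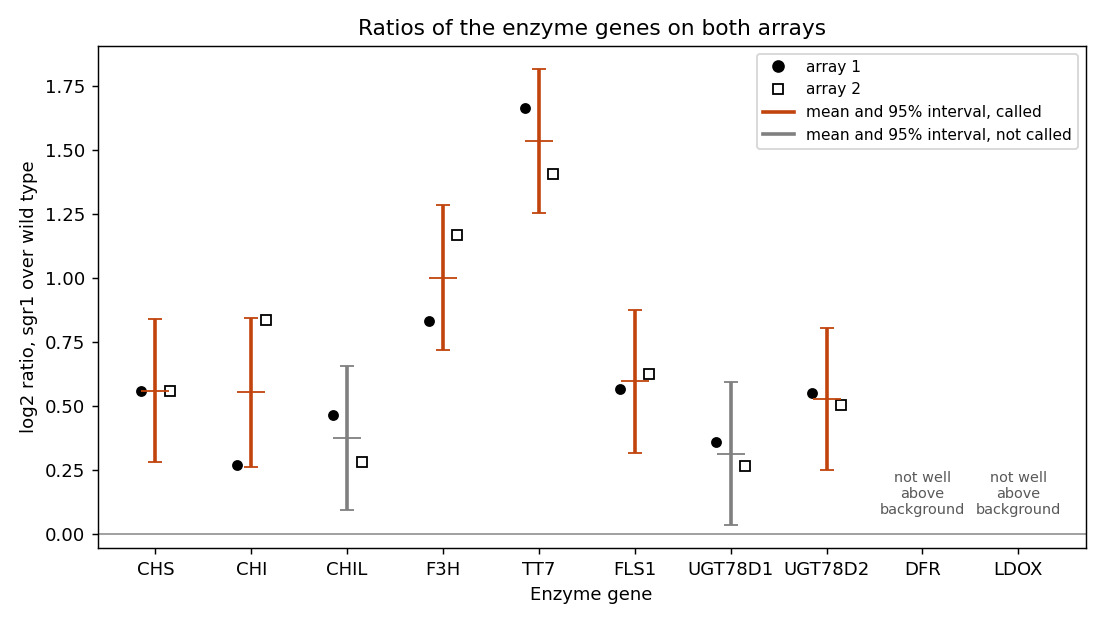
The log2 ratio of sgr1 over wild type for each enzyme gene, with array 1 as filled circles, array 2 as open squares, and the mean with its 95% interval from limma in orange where called and grey where not. TT7 (1.54) and F3H (1.00) lie above the other 6 genes, which lie between 0.31 and 0.60, and DFR and LDOX have no ratio because neither genotype was well above background.

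DFR and LDOX were at background level in both genotypes. The DFR spot had intensities of 64.3 in Cy3 and 92.2 in Cy5 in sgr1, against 62.1 in Cy3 and 83.2 in Cy5 in wild type, over local backgrounds of 61 and 68 in sgr1 and 54.5 and 62.5 in wild type. The LDOX spot had intensities of 63 in Cy3 and 88.3 in Cy5 in sgr1, against 64.8 in Cy3 and 89 in Cy5 in wild type, over backgrounds of 57 and 71.5 in sgr1 and 55.5 and 68 in wild type. No fold is given for either, since both genotypes have only a bound. Any transcripts below the arrays' limit went unseen, so the data do not show whether these genes differed. AT4G22870, the gene next to LDOX, whose probe has nearly the same description in the files, was measured and did not pass (-0.07, limma adjusted p = 0.811); it was chosen after its value was seen.

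The ratios of the members differed among themselves. TT7 lay above F3H on both arrays, by 0.83 on array 1 and by 0.24 on array 2, and F3H lay above FLS1, the next gene, by 0.27 and 0.54. Between FLS1 and CHS the differences were 0.0057 and 0.066. The order of CHS, CHI and UGT78D2 was not the same on both arrays, and the array values of CHIL and UGT78D1 overlapped. TT7 and F3H thus lay above the other 6 genes on each array, although the ratio of CHI on array 2 (0.84) was as high as that of F3H on array 1 (0.83). Among the other 6, the sole neighbours in the order whose array values did not overlap were FLS1 with CHS and UGT78D2 with CHIL (0.083 and 0.22). These differences between genes are descriptions without a test.

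The channel levels below are normalized log2 intensities made comparable between the arrays. They are built from the same ratios, so they restate these gene by gene and add no further support. TT7 had levels of 9.82 and 9.65 in sgr1, against 8.16 and 8.24 in wild type. F3H had levels of 13.08 and 13.49 in sgr1, against 12.25 and 12.31 in wild type. For both genes the lower sgr1 level was well above the higher wild-type level. UGT78D1, which had the smallest ratio and was not called, had levels of 12.79 and 12.85 in sgr1, against 12.43 and 12.58 in wild type. CHI had levels of 11.39 and 11.81 in sgr1, against 11.11 and 10.97 in wild type, and sgr1 differed more between the arrays than wild type did. Summed over the 8 measured probes, the normalized intensity was 76108 and 84413 in sgr1, against 51725 and 55625 in wild type. The brightest probes weigh most in these sums, namely CHS (14.36 and 14.53 in sgr1) and FLS1 (14.32 and 14.48 in sgr1).

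The scanner software attached an error to each spot's log10 ratio, estimated within the array. For the 8 measured genes that error lay between 0.0618 and 0.0824 on the log10 scale. For DFR it was 0.413 on array 1 and 0.302 on array 2, and for LDOX 0.307 and 0.236, several times as wide.

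Brightness bears on how the ratios can be read. Among the members 6 belonged to the brightest 25% of the genes tested, in which 11.5% of the genes were called higher. CHS and FLS1 belonged to the brightest 5%, in which the median ratio was -0.021 on array 1 and 0.025 on array 2.

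**Figure D3:**
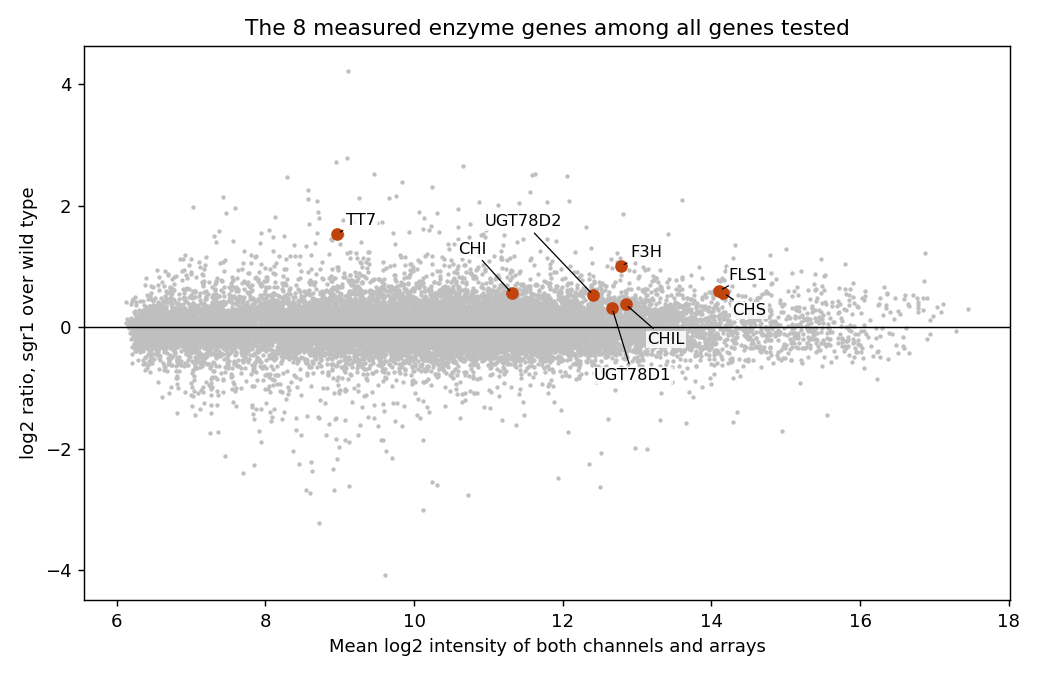
The mean log2 ratio of sgr1 over wild type against the mean log2 intensity of both channels and arrays, for the 19059 genes tested (grey) and the 8 measured enzyme genes (orange). The 8 genes lie above 0 over a wide range of intensity, from TT7 at 8.97 to CHS at 14.2, and other genes of both signs surround them.

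The calls depended on the normalization and on the starting values, more than the mean ratios did. The Cy5 channel read brighter than Cy3 at bright spots on both arrays. With each array merely centred on its median, 7 of the 8 genes were below 0 on array 1 and all 8 were above 0 on array 2, with TT7 as the exception at 0.97 and 2.13. The mean over the swapped dyes stayed between 0.31 and 1.55 for the 8 genes, but no member was called, as 0.00525% of all genes were called higher with this setting. With the scanner software's own log ratios, which differ in background correction and dye normalization at once, F3H (0.98, limma adjusted p = 0.0144) and TT7 (1.80, limma adjusted p = 0.00146) remained called against 5.24% of all genes. The calls of CHS (0.52, adjusted p = 0.0741), CHI (0.54, adjusted p = 0.128), FLS1 (0.57, adjusted p = 0.0598) and UGT78D2 (0.54, adjusted p = 0.067) were lost there, although their ratios moved by little. The software's processed signals gave the same 2 calls, against 5.41% of all genes called higher. With scaling between arrays 7 members were called, against 9.84% of all genes. The count stayed at 6 with a normexp offset of 16 (10.2% of all genes), without background correction (9.72%), without the filter on dim probes (6.64%), with both channels required above background (9.82%) and with a trended, robust variance (10.4%).

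**Figure D4:**
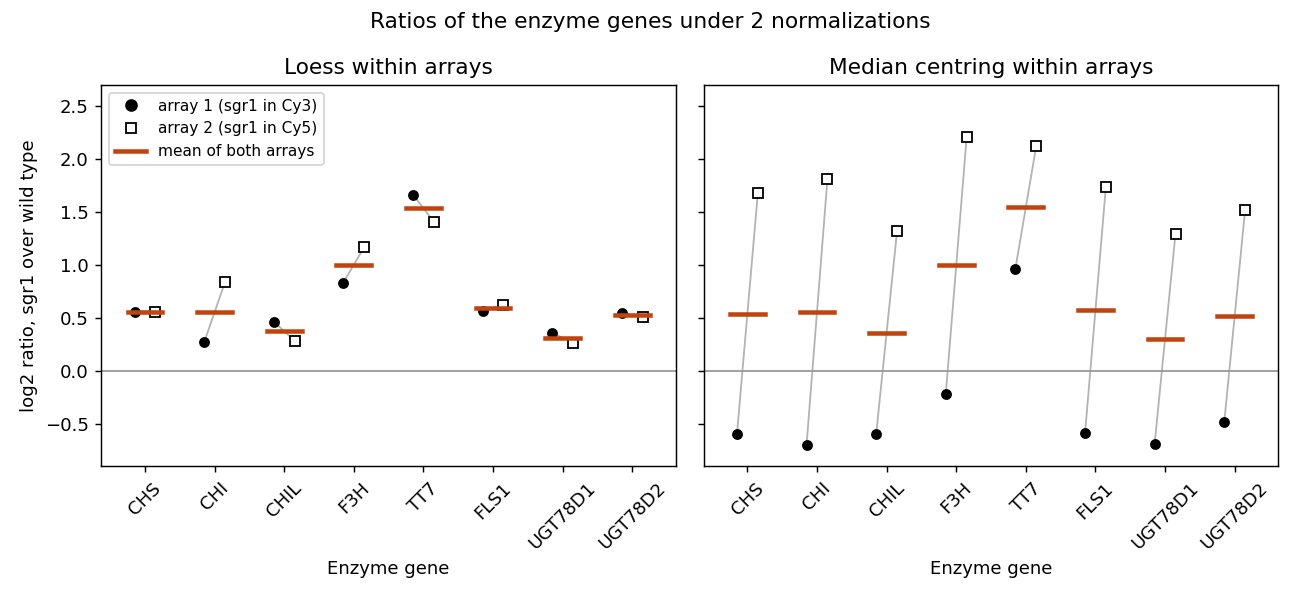
The log2 ratio of sgr1 over wild type of the 8 measured enzyme genes on array 1 (sgr1 in Cy3, filled circles) and array 2 (sgr1 in Cy5, open squares), with their mean in orange, after loess (left) and after median centring (right). The arrays lie far apart after median centring, with 7 genes below 0 on array 1, and the means lie between 0.31 and 1.55 in both panels.

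Upstream of CHS, the genes that supply coumaroyl-CoA did not move together. Of the 9 genes of the phenylpropanoid entry, all measured, 2 rose and 1 fell in sgr1, with a median of 0.10. For this and all lists below, the shares over all genes were 9.92% higher and 8.98% lower. PAL2, a phenylalanine ammonia-lyase, rose (0.55 ± 0.067, limma adjusted p = 0.00308), as did 4CL3 (0.67 ± 0.25, adjusted p = 0.000308), the ligase linked to flavonoid rather than lignin synthesis, while PAL3 fell (-0.71 ± 0.067, adjusted p = 0.00012). The call of PAL2 was lost with the software's log ratios. The shared hydroxylase C4H (0.10), PAL1 (0.19), PAL4 (-0.23), 4CL1 (0.32), 4CL2 (-0.28) and 4CL5 (-0.20) did not pass.

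Of 8 genes of the monolignol branch, which draws on the same coumaroyl-CoA, 3 rose and none fell, with a median of 0.33. They were CCR1 (0.40 ± 0.16), which commits feruloyl-CoA to lignin, CCOAOMT1 (0.40 ± 0.19), a methyltransferase, and OMT1 (0.40 ± 0.27), a methyltransferase that also acts on flavonols. Their adjusted p-values lay between 0.034 and 0.0388, and all 3 calls were lost with a smaller normexp offset of 16 and with the software's log ratios. HCT, at the branch point with CHS, had a ratio of 0.20 and did not pass.

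Downstream, 10 of 13 genes for decoration and transport of flavonoids were measured, of which 4 rose and 2 fell, with a median of 0.19. SCPL10, an acyltransferase that attaches sinapate to anthocyanins, rose most (0.96 ± 0.11, limma adjusted p = 4.67e-07). TT19, a glutathione transferase needed to bring anthocyanins to the vacuole, rose (0.71 ± 0.19, adjusted p = 0.000143), with a ratio of 1.35 by the software's log ratios. RHM1, which makes the UDP-rhamnose that UGT78D1 consumes, rose by less (0.47 ± 0.24, adjusted p = 0.0119) and lost its call with the software's log ratios. UGT78D3, an arabinosyltransferase of flavonols in the same gene cluster as UGT78D2, was well above background in sgr1 on both arrays and in wild type on neither, and its bound was at least 1.40-fold higher in sgr1. Probes for the close relatives in this cluster, and for those of SCPL10, may hybridise to more than 1 of them, which was not tested.

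The falls were those of UGT84A1 (-0.99 ± 0.037, limma adjusted p = 2.24e-07), which makes glucose esters of hydroxycinnamates, and UGT79B1, an anthocyanin xylosyltransferase. UGT79B1 was well above background in wild type on both arrays and in sgr1 on neither, and its bound was at least 1.38-fold lower in sgr1. UGT78D3 and UGT79B1 each passed the filter on dim probes only through the genotype in which they were brighter, so their calls carry no weight. With both channels required above background, 3 of 7 genes of this list rose and 1 fell, against 9.82% and 8.82% of all genes. The anthocyanin glucosyltransferase UGT75C1 (-0.04), the malonyltransferase 5MAT (-0.30) and UGT89C1 (0.24), which adds rhamnose to flavonols, did not pass. The dim 5MAT was called lower with a normexp offset of 16 (-0.56, limma adjusted p = 0.00436) and with the software's log ratios (-1.64, adjusted p = 0.032). On 1 array 5MAT passed the filter through wild type alone, so these calls carry no weight. None of the 4 measured genes of the 8 in the proanthocyanidin branch was called, and BAN, TT12, TT10 and TT16 failed the filter on dim probes.

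Among the relatives of CHS, CHI and FLS1, 9 of 13 were measured, of which 2 rose and none fell, with a median of 0.10. Both that rose were relatives of FLS1. FLS3 had intensities of 212 in Cy3 and 621 in Cy5 in sgr1, against 65.9 in Cy3 and 117 in Cy5 in wild type. Its ratio was 1.87 ± 0.10. Wild type was well above background on only 1 array, so FLS3 passed the filter on the other through sgr1 alone, and its call carries no weight. With both channels required above background, 1 of 8 genes of this list rose and none fell, against 9.82% and 8.82% of all genes. With the software's log ratios, which handle dim spots in another way, the ratio of FLS3 was 4.09. FLS2, thought to be inactive as an enzyme, had a ratio of 0.60 ± 0.11 (adjusted p = 0.00116). The other FLS genes, FLS4, FLS5 and FLS6, were not well above background in any channel.

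Among the known regulators, 10 of 14 were measured, of which 4 rose and 3 fell, with a median of 0.26. Of the activators of the early enzymes, MYB12 (0.77 ± 0.028, limma adjusted p = 2.85e-05) rose, and MYB111 (0.35, adjusted p = 0.0713) did not pass. MYB11, too dim in wild type to be well above background there, had a bound of at least 1.80-fold higher in sgr1. It passed the filter on dim probes only through sgr1. With both channels required above background 3 of 9 regulators rose and 3 fell, against 9.82% and 8.82% of all genes. For the activators of late anthocyanin genes the pattern was mixed: MYB75 rose (1.19 ± 0.22), its partners TT8 (-0.55 ± 0.13) and EGL3 (-0.46 ± 0.14, named after its value was seen) fell, and MYB90, MYB113 and MYB114 were not well above background in any channel. With the software's log ratios MYB75 was at 1.78 and TT8 at -1.44, both still called, and EGL3 was not called (-0.57, adjusted p = 0.0592). The repressor MYB4 rose (0.80 ± 0.16), and CPC, a small MYB that competes for the same partners, fell (-1.49 ± 0.28).

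Light and UV-B drive the early flavonoid genes, and the 8 genes of that signalling list were all measured, of which 4 rose and 2 fell, with a median of 0.39. HYH (0.70 ± 0.11), a relative of HY5, rose, while HY5 itself (0.32, limma adjusted p = 0.105) did not pass. COP1 (0.63 ± 0.16), a ubiquitin ligase of light signalling, ELIP1 (1.64 ± 0.10), an early light-induced protein, and RUP1 (0.45 ± 0.33), a brake on the UV-B receptor, rose. RUP2 (-0.41 ± 0.12) and ELIP2 (-0.53 ± 0.20), the relatives of RUP1 and ELIP1, fell. With the software's log ratios RUP1, RUP2 and ELIP2 were not called.

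**Figure D5:**
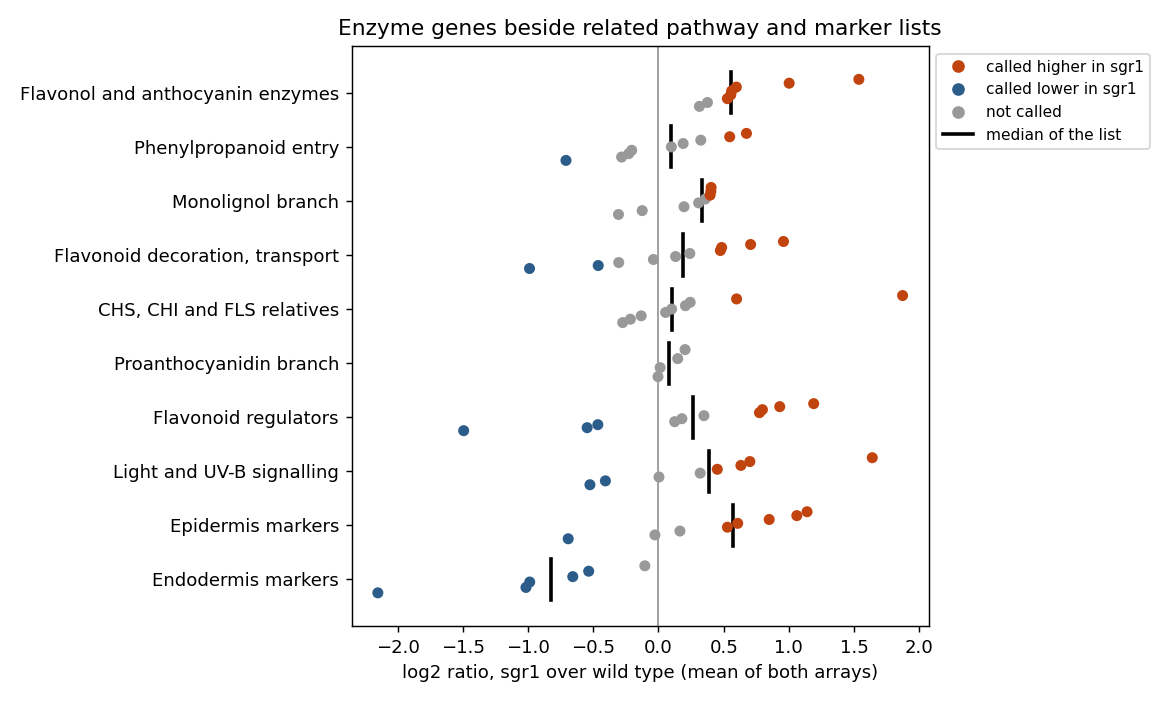
The mean log2 ratio of sgr1 over wild type for each measured gene of the enzyme list, of 7 related lists and of 2 marker lists, in orange where called higher in sgr1, blue where called lower and grey where not called, with each list's median as a black bar. The enzyme list (median 0.56) has no gene below 0, and the epidermis markers (median 0.57) and endodermis markers (median -0.82) are shown beneath for comparison.

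Markers of other cell types moved beside the enzyme genes. Of 8 epidermis markers 5 rose and 1 fell, against 9.92% and 8.98% of all genes, with a median of 0.57. The summed normalized intensity of their 9 probes was 1.60 times (array 1) and 1.88 times (array 2) as high in sgr1 as in wild type. The 2 probes of CER1 carried between 30.6% and 46.8% of that sum, and without them, a setting chosen after seeing the data, the quotients were 1.31 and 1.47. The quotient for the 8 enzyme genes was 1.47 and 1.52, in which the bright CHS and FLS1 weigh most. CER1, CER2, CER4 and CER6 of wax synthesis and FDH of the cuticle rose, PDF1, a protoderm marker, fell (-0.69), and the identity factor ATML1 (-0.03) and LTPG1 (0.16) did not pass. With the software's log ratios FDH and CER6 were no longer called. Of 6 endodermis markers none rose and 5 fell, with a summed intensity 0.646 and 0.574 times as high in sgr1. Among these SHR lost its call with the software's log ratios.

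Of 6 floral organ markers 3 were measured and 2 were called higher. With both channels required above background, 1 of 2 was called higher, against 9.82% of all genes. AP1 rose (0.61 ± 0.19), and its ratio was 1.66 with the software's log ratios. SEP1 had a bound of at least 1.54-fold higher in sgr1, and since wild type was not well above background it passed the filter through sgr1 alone. AG and AP3 were not well above background in any channel, and PI in 1 channel of sgr1 alone. The stem genes KNAT1, PNY and STM were all measured, and none was called. Of 5 markers of xylem and fibre walls NST1 (0.78) and IRX3 (0.40) rose, and of 4 chlorenchyma markers LHCA4 (0.56 ± 0.58) and LHCB5 (0.48 ± 0.78) were called higher. These calls rested on array 2, with 0.15 on array 1 and 0.97 on array 2 for LHCA4, and -0.07 and 1.03 for LHCB5. LHCB5 lost its call without background correction. With the software's log ratios NST1 alone of these wall and chlorenchyma genes remained called. The summed intensity of the chlorenchyma markers was 0.988 times as high in sgr1 on array 1 and 1.77 times on array 2. The part of any of these shifts in the ratios of the enzyme genes was not tested.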

How the data were processed

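The scanner files deposited by the authors hold, per spot, the mean intensity, the median background intensity and processed intensities of each channel, and a log10 ratio of Cy5 over Cy3 with its error, made with Agilent Feature Extraction 9.1.3.1, per the file headers. A value table also deposited holds the same log10 ratios, with no difference at any of the 39102 spots. A genome build for the probes was not given in the sources used here. No coordinates are printed, and probe sequences were not analysed here.

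From the mean and background intensities, ratios were made by normexp (offset 50) and loess within each array in limma 3.58.1 under R 4.3.3, with control and outlier spots at weight 0. The sign of array 1 was reversed, and both then read as sgr1 over wild type. Probes flagged as outliers on either array (96 spots on array 1, 177 on array 2) were left out, and probes needed at least 1 channel well above background on each array. Spots of a probe, then probes of a gene, were averaged, which left 19059 genes. Each was tested against 0 with lmFit and eBayes (two-sided; 1 residual and 47.7 prior degrees of freedom), so that 1 SD of 0.198 shared across genes dominates each p-value. Across genes, which are not independent, the arrays correlated with r = 0.72. Both arrays were on 1 slide, and their number limits the precision. The share of non-control spots well above background ran from 59.2% to 66.5% over the 4 channels, and no spot was saturated. A fold against a genotype not well above background on either array is given as a bound, which leaves out the spread between the arrays. The dim side was taken as its own signal or, if higher, the array's lowest signal well above background. Channels were separated after Aquantile. For UGT78D3 and UGT79B1 the dim side's own signal was the higher on both arrays, so their bound is the plain ratio. Changes of dim genes are understated by the offset. The procedure was also run on simulated data with a milder dye effect than that of these arrays. That run therefore says little about the loess step here.

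Members and lists were chosen with earlier results of these data known. The named genes are the 10 enzyme genes, SCR, and the called members of each list (up to 6, by size), with uncalled members by value where a whole list is given; HCT, UGT75C1, 5MAT, UGT89C1, MYB111 and HY5 were named outside this rule, after their values were seen. Symbols come from the lists by locus, and 18949 of the 19059 genes matched RefSeq's TAIR10.1 gene table, which served only for names and neighbours. No gene was ranked for a likeness to the members, since 2 arrays give no measure of it. Alternatives covered background correction, normalization, starting values, the filter, the variance model and leaving out each array.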

Additional observations from a re-analysis of the deposited data

How the results depend on the processing

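The 8 measured enzyme genes had mean ratios above 0 with the 6 alternatives that can move a ratio and allow a test; the other 4 (Aquantile, both filters and the variance model) leave these ratios as they are. The count called higher, 6 as reported, was 7 with scaling between arrays, 2 with either the scanner software's log ratios or its processed signals, and 0 with median centring; with the other settings it was 6, and no member was called lower with any. Median centring left 1 gene higher and 1 lower among all 19059, since the dye effect that it leaves in enters the spread between the arrays. The software's log ratios gave 999 higher and 953 lower, and its processed signals 1031 higher and 989 lower, where the cause was not tested. The median of the 8 genes was 0.556 without replicate 2 and 0.594 without replicate 1, values of single arrays with no test, like that of the arrays taken as 1 replicate. Without the filter, DFR (-0.06, limma adjusted p = 0.861) and LDOX (-0.08, limma adjusted p = 0.794) had ratios between background levels only. These values do not show whether DFR or LDOX differed. The 44 called related and marker genes kept their direction with each alternative that gave a test and a value for them (5 drop out when both channels must be above background), and LHCB5 alone reversed with 1 array (-0.0735 without replicate 2 and 1.03 without replicate 1); each lost its call with at least median centring. Without CER1, chosen after seeing the data, the summed epidermis quotients were 1.31 and 1.47. No paired analysis was possible because the within-array ratios tested already pair the genotypes and leave no second block to fit. A count of calls could not be had from 1 array.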
